A study of Mus musculus with 2 samples.

Results

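Malat1, Neat1, Meg3, Kcnq1ot1, Snhg11, Snhg12, Dleu2, Lncpint and Gas5 are long noncoding RNAs, transcripts that are capped and in most cases polyadenylated like messenger RNAs but are not known chiefly for a protein product. These 9 genes were found by symbol among the 32285 genes of the count tables, and all 9 had counts in both libraries. They had been picked with earlier results of these data known, for their levels by cell class, by total count and by mitochondrial percent. Those levels are therefore given as descriptions, without tests. That the RNAs reside in the nucleus is background knowledge about them, and the counts hold no measure of where in a cell an RNA lay. The spliced RNAs of Gas5 and of related host genes are also known from the cytoplasm.

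The study dissociated hippocampi of 4-week-old mice and made 1 single-cell library per genotype, wild type and Crlf3-mutant, each from 4 hippocampi of 2 mice. Crlf3 encodes cytokine receptor-like factor 3, and the mutant carries the L389P change. A coding point mutation of this kind is not checked by counts of Crlf3. No treatment was given, and no other allele is named. Tissue was digested with enzymes, freed of debris and myelin, and sorted for cells that exclude a dead-cell dye, so that fragile and myelinating cells could be lost before capture. The libraries read the 5′ end of RNAs, and each captured molecule is counted once through its unique molecular identifier (UMI).

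After removal of barcodes with few genes, few UMIs or a high mitochondrial share, and of called doublets, 7098 wild-type and 5276 mutant barcodes remained, with 48973371 and 41736212 UMIs. Each barcode was placed in a cell class by marker genes, and a class name below stands for barcodes that carry that class's markers. The 6 classes with at least 50 barcodes in each library were microglia (4444 wild-type and 3250 mutant barcodes), astrocytes (778 and 492), endothelial cells (821 and 806), mural cells of vessel walls (128 and 169), choroid plexus epithelium (415 and 143) and neuroblasts, the immature neurons of the dentate gyrus and related lineages (143 and 170). Mature neurons were nearly absent: excitatory neuron markers gated 3 and 2 barcodes, and neither library held a barcode gated as an inhibitory neuron or an oligodendrocyte. The labelled tissue is thus represented here chiefly by its glia, vessels and immature neurons. The libraries shared 64 barcode sequences. With 1 library per genotype, genotype and library cannot be told apart, and no p-value is given. Intervals are exact Poisson 95% intervals on summed UMIs and cover counting error only.

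Malat1 and Neat1 are architectural RNAs of separate nuclear bodies: Malat1 collects at nuclear speckles, which hold splicing factors, and the long form of Neat1 builds paraspeckles. Meg3 and Kcnq1ot1 come from imprinted loci, where only the copy from one parent is active. Meg3 is expressed from the maternal copy, whereas Kcnq1ot1 is expressed from the paternal copy and silences neighbouring genes in cis. Snhg11, Snhg12 and Gas5 are hosts whose introns carry small nucleolar RNAs (snoRNAs), guides for the modification of ribosomal RNA. Dleu2 is the host transcript of the microRNAs miR-15a and miR-16, and Lncpint is a long intergenic RNA known as a target of p53.

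In the GRCm38 annotation Malat1 lies on chromosome 19 at 5795690-5802672 and Neat1 at 5824708-5845478, both on the minus strand and 22035 bases apart. Meg3 lies on chromosome 12 at 109541001-109571726 on the plus strand. Kcnq1ot1 lies on chromosome 7 at 143203458-143296549, inside Kcnq1 and on the opposite strand to it. Snhg12 on chromosome 4 at 132308623-132311024 holds the snoRNAs Snora16a, Snora44, Snora61 and Snord99, and Gas5 on chromosome 1 at 161034422-161038539 holds among others Snord78, Snord80 and Snord47. Snhg11 lies on chromosome 2 at 158375638-158386145 and is annotated there as protein coding. Dleu2 spans 61602839-61682373 on the minus strand of chromosome 14 and overlaps Trim13 and Kcnrg on the other strand. Lncpint spans 31082565-31220488 on chromosome 6. Whether strand was used in counting, and whether intronic reads were counted, is not given in the sources used here. Without strand, reads of Kcnq1ot1 and Kcnq1, of Dleu2 and Trim13 or Kcnrg, and of Gas5 and its upstream neighbour Zbtb37 cannot be told apart where they overlap.

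Because 5′ libraries read RNAs from their start, the bases around the annotated starts of 4 members are shown, 3 that held a searched motif and Malat1, which held none, from 100 bases before the start to 20 after it, taken from RefSeq on GRCm38.p6 and written 5′ to 3′ along the gene. Capitals mark the cAMP response element letters TGACGTCA and the TATA-like letters TATATA, each searched on both strands. The windows are chr19:5802653-5802772 (minus strand) for Malat1, chr12:109540896-109541015 for Meg3, chr4:132308578-132308697 for Snhg12 and chr1:161035066-161035185 for a downstream start of Gas5.
Malat1: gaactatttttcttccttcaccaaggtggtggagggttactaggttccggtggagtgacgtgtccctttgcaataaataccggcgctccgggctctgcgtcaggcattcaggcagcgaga
Meg3: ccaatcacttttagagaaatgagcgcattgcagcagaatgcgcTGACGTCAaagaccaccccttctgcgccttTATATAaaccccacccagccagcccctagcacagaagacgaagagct
Snhg12: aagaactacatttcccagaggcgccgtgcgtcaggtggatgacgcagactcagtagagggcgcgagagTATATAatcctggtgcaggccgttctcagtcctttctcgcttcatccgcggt
Gas5: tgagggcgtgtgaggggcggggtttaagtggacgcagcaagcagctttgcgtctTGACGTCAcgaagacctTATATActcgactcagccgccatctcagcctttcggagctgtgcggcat

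TGACGTCA was found 57 bases before the Meg3 start and 46 bases before the Gas5 start. TATATA was found 27, 29 and 32 bases before the starts of Meg3, Gas5 and Snhg12. Of 32851 windows of 300 bases around RefSeq starts, 1.79% held TGACGTCA and 5.67% held TATATA. Promoter windows were matched for 8 of the 9 members, and the windows of Malat1, Kcnq1ot1, Snhg11, Dleu2 and Lncpint held neither string of letters. Dleu2 is shown through the microRNAs it hosts, whose hairpins lie within it on the same strand. Their 5p arms share the seed AGCAGCA, in capitals.
mmu-miR-15a-5p: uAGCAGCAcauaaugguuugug
mmu-miR-16-5p: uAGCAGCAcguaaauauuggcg

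Malat1 was highest in astrocytes and lowest in choroid plexus cells in both libraries. Levels are given as CPM, the UMIs assigned to an RNA for every 1000000 UMIs in its class, with the wild-type value first. A gene counts as measured from 50 CPM and, in a comparison of 2 groups, 30 UMIs in the higher one. Malat1 stood at 30921 (95% interval 30763 to 31080) and 25875 (25711 to 26039) CPM in astrocytes. It followed at 18591 and 16037 in mural cells, 9515 and 9333 in neuroblasts, 8328 and 7743 in endothelial cells and 7543 and 6840 in microglia. In choroid plexus cells it was 483 (465 to 503) and 166 (150 to 184). The order of the 6 classes was the same in both libraries, and no pair of neighbours in it had overlapping intervals. Astrocytes exceeded mural cells by 1.66 and 1.61 times. The range of Malat1 over the classes, 5.97 and 7.20 on a log2 scale of CPM plus 10, was larger than that of 96.2% and 98.8% of measured genes, whose median range was 2.47 and 2.48.

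**Figure D1:**
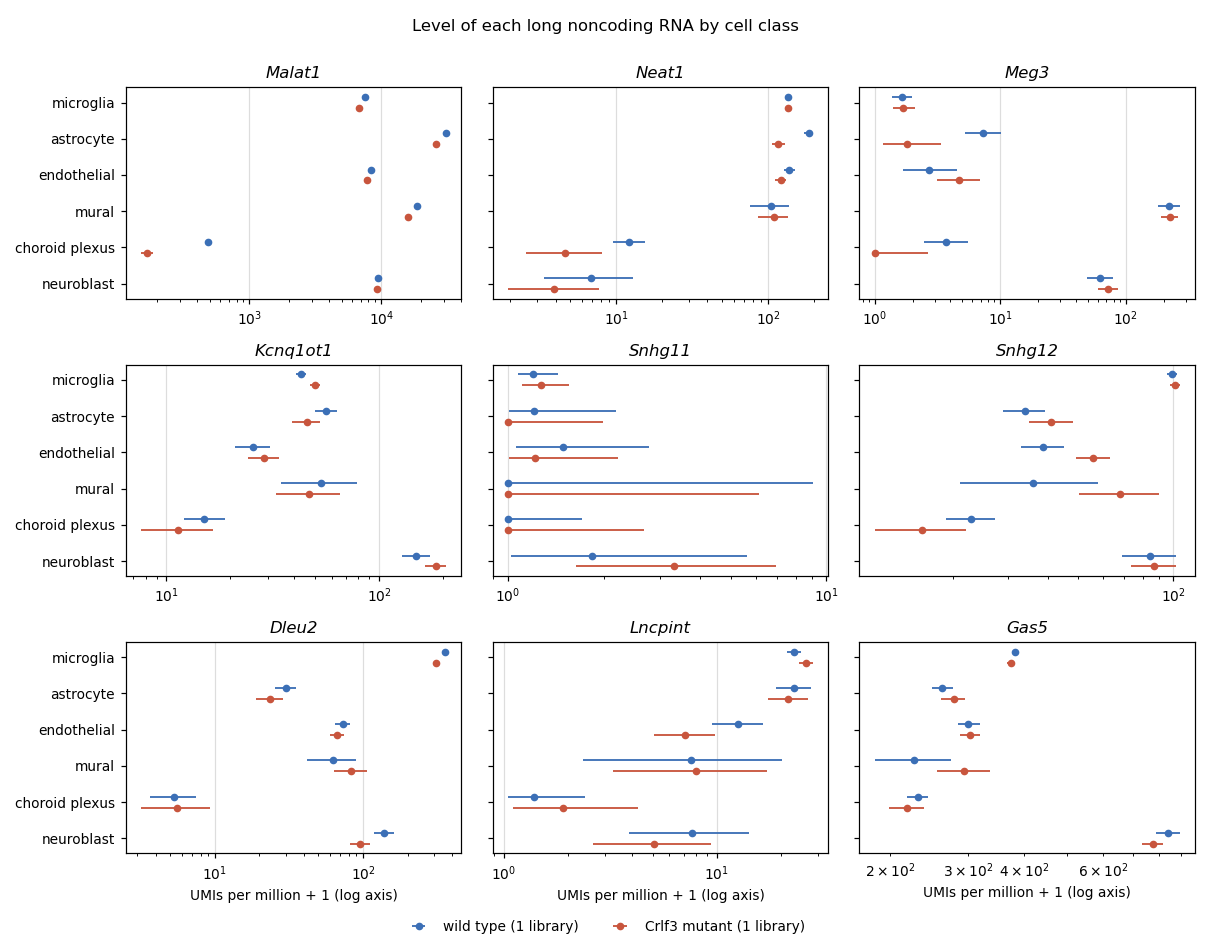
Level of each of the 9 RNAs in 6 cell classes, as UMIs per 1000000 plus 1 on a log axis whose limits differ between panels, with bars for exact Poisson 95% intervals of counting error. Blue is the wild-type and red the mutant library, 1 library each. Malat1 is highest in astrocytes (30921 and 25875), Meg3 in mural cells (221 and 223), Dleu2 in microglia (357 and 308), Kcnq1ot1 and Gas5 in neuroblasts.

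The proteins of nuclear speckles showed a different order of classes, apart from the choroid plexus. The summed CPM of 19 speckle protein genes was highest in neuroblasts (5788 and 5887), then 4845 and 4959 in microglia and 4506 and 4271 in astrocytes, and lowest in choroid plexus cells (1295 and 1222). In the wild-type library 12 of the 19 peaked in neuroblasts, 4 in microglia and 3 in astrocytes. Neuroblasts were also the class where most genes peaked, 32.4% and 31.7% of all measured genes, against 16.2% and 16.5% in microglia and 14.2% and 14.0% in astrocytes. These shares are the background of the counts by class that follow, and no list was tested against them. Son, a large speckle core protein, was 1 of the 3 genes whose class profile was most like that of Malat1 (Pearson r 0.97 over 12 class and library points), beside Dnajc1 and Tnrc6a (both 0.98). Son was at 1161 and 1041 CPM in astrocytes and at 118 and 104 in choroid plexus cells. These are the highest of 7571 candidate genes by selection, the points share 2 libraries, and the correlations are descriptions.

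Single barcodes showed the same separation. The median barcode held 28717 and 24868 CPM of Malat1 in astrocytes and 7202 and 6527 in microglia. The 5th to 95th percentile of microglia ran from 2989 to 15396 CPM for wild-type and from 2650 to 14011 for mutant barcodes. Fewer than 1000 CPM were found in 36 of 4444 wild-type microglia (0.81%) but in 391 of 415 choroid plexus barcodes (94.2%). In the mutant library 140 of 143 choroid plexus barcodes (97.9%) were below that level. The median choroid plexus barcode held 10084 and 11743 UMIs, and the median microglia barcode 6353 and 7725.

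**Figure D2:**
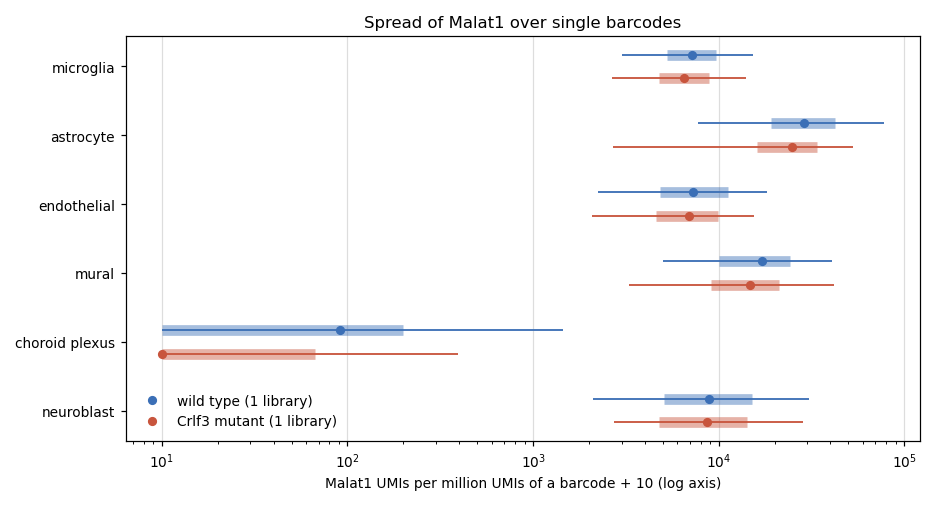
Malat1 in single barcodes of each class, as UMIs per 1000000 of the barcode plus 10 on a log axis. Points are medians, boxes span the 25th to 75th percentile and lines the 5th to 95th percentile of barcodes within 1 library. Choroid plexus medians (80.8 and 0 before the added 10) lie apart from all other classes, whose medians run from 6527 to 28717.

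Within the choroid plexus, Malat1 was held by a few barcodes. No Malat1 UMI was seen in 176 of 415 wild-type barcodes (42.4%, exact binomial 95% interval 37.6 to 47.3) and in 103 of 143 mutant barcodes (72.0%, 63.9 to 79.2). When every barcode was thinned to 2000 UMIs, which left out 3 and 1 shallower barcodes, 23.8% and 7.75% still held a Malat1 UMI. The 24 wild-type and 3 mutant barcodes with 10 or more Malat1 UMIs carried 84.4% and 82.0% of the class's Malat1 UMIs. These barcodes were chosen by Malat1, so its level in them (2792 and 2041 CPM) is not a finding. A cut on a count of UMIs also favours deep barcodes, so their depth is not a finding either. They held median totals of 23405 UMIs against 9888 in the other choroid plexus barcodes, and 37283 against 11638.5. Their median mitochondrial percent was 3.91 against 2.23, and 3.45 against 1.65.

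Other nuclear and stress transcripts differed between the same 2 sets of choroid plexus barcodes. In the wild-type library Kcnq1ot1 stood at 90.0 CPM in the barcodes with 10 or more Malat1 UMIs and at 1.13 in the rest, and Neat1 at 53 against 4.08. Gas5 was at 208 against 233 CPM in that library, under 1.5 times. For mutant barcodes it was 115 against 225 CPM (-0.91, past 1.5 times), from 17 UMIs in the Malat1-rich barcodes. The 19 speckle protein genes together held 2024 CPM in the Malat1-rich barcodes and 1170 in the rest, and 1736 and 1185 in the mutant library. The 18 immediate early genes, which respond quickly to stress such as tissue dissociation, together held 2091 against 428 CPM, and 3200 against 351 for mutant barcodes. Among them were Egr1 (361 against 20.2 CPM) and Fos (216 against 18.6) in wild-type barcodes. These sums include every gene of a list, since only 1 immediate early gene reached 50 CPM in the larger set of barcodes and a count of genes past the minimum would favour higher ones. Of all measured genes 13% were 1.5 times higher and 27.0% were 1.5 times apart, and for mutant barcodes 5.93% and 42.0%. Ttr, the transthyretin of choroid plexus epithelium, was similar in both sets, 250781 and 231564 CPM. The summed microglia markers reached 708 CPM in the Malat1-rich barcodes and 96.5 in the rest for wild-type barcodes, and 1403 and 124 for mutant ones, beside 27792 and 28197 in microglia. The part of depth and of microglial RNA in these differences was not tested.

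Neat1 followed a different class order from its chromosomal neighbour. In the wild-type library it was 184 (172 to 197) CPM in astrocytes, 137 in endothelial cells, 135 in microglia and 103 in mural cells. In the mutant library these 4 classes, at 116, 120, 134 and 108 CPM, had intervals that overlapped from one neighbour to the next. Choroid plexus cells held 11.2 and 3.62 CPM and neuroblasts 5.84 and 2.91. Neuroblasts thus carried Malat1 above its microglial level, with Neat1 as low as in choroid plexus cells. Of the paraspeckle proteins, all 10 measured genes were highest in neuroblasts in both libraries (background 32.4% and 31.7%). Their sum was 3989 and 3916 CPM there, 1793 and 1832 in microglia and lowest in choroid plexus cells, at 812 and 871. Sfpq, one of the core paraspeckle proteins, was at 740 and 739 CPM in neuroblasts and at 146 and 180 in astrocytes. The class profiles most like that of Neat1 were those of Lifr (r 0.98), Itpr2 and Tor1aip1 (both 0.97). Among classes too small for comparison, border macrophages held 377 and 325 CPM in 47 and 18 barcodes, and 24 and 45 neural progenitor barcodes held 1 and 0 Neat1 UMIs.

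Meg3 was highest in mural cells and, below them, in neuroblasts. It stood at 221 (180 to 269) and 223 (190 to 261) CPM in mural cells, from 101 and 160 UMIs. Neuroblasts held 61.7 and 71.5 CPM, and astrocytes, endothelial cells, microglia and choroid plexus cells held between 0 and 6.34. Mural cells exceeded neuroblasts by 3.58 and 3.13 times. Parm1, Serping1 and Cacna1c had the most similar class profiles (all r 0.99). Values outside the 6 classes were 110 and 151 CPM in 51 and 19 ependymal barcodes and 1546 and 1438 CPM in the 3 and 2 barcodes with excitatory neuron markers.

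Nearly all Meg3 of the neuroblast class lay in barcodes where summed Dlx genes, markers of the GABAergic lineage, were higher than dentate granule markers. The class was split by whether Dlx or dentate granule markers were higher, a split added after the data were seen. The 23 wild-type and 32 mutant Dlx barcodes held 73 of 74 and 120 of 123 Meg3 UMIs, or 448 and 386 CPM. The 115 and 136 granule barcodes held 1.0 and 2.16 CPM. Meg3 was seen in 10 of 23 and 16 of 32 Dlx barcodes. Gad1 and Gad2, the enzymes that make GABA, were at 184 and 461 CPM in wild-type Dlx barcodes and had no UMI in granule barcodes. Rian and Mirg, expressed from the maternal copy of the same locus as Meg3, gave 2 and 1 UMIs in wild-type Dlx barcodes, 11 and 2 in mutant ones and 0 in granule barcodes. Malat1 differed little, at 9051 against 9752 CPM in wild-type barcodes and 9859 against 9248 in mutant ones. In this split 31.5% and 24.8% of measured genes were 1.5 times apart.

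The mural class held a second division, between barcodes with higher pericyte markers (109 and 138) and those with higher smooth muscle markers (19 and 31). Pericytes carried Meg3 at 303 and 311 CPM against 35.7 and 50.1 in smooth muscle cells. Malat1 was 21420 against 12199 CPM in wild-type barcodes and 18089 against 11960 in mutant ones. Dleu2 was 79.0 against 21.4, below the minimum from 25 and 3 UMIs, and 115 against 16.7 from 55 and 4 UMIs. Neat1 went the other way, at 37.9 against 250 and 75.6 against 171 CPM. Gas5 was also lower in pericytes, at 186 against 314 and 279 against 317 CPM, the second under 1.5 times. The immediate early genes were likewise lower in pericytes, 13 of 18 by at least 1.5 times in wild-type barcodes and 10 of 18 in mutant ones. Of measured genes 58.7% and 53.6% were 1.5 times apart between these barcodes, with medians of 0.42 and 0.40. Pericyte barcodes held a median of 2863 and 3405.5 UMIs against 7326 and 7617, and the part of depth in these differences was not tested.

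Kcnq1ot1 was highest in neuroblasts, at 148 (127 to 172) and 184 (164 to 206) CPM. That was 2.68 and 3.75 times the next class. Astrocytes held 55.4 and 44.7 CPM, mural cells 52.5 and 46.1, and microglia 42.2 and 49.1, with overlapping intervals. Endothelial cells (24.6 and 27.7) and choroid plexus cells (14.1 and 10.4) were below these. Neuroblasts of both kinds carried it, at 166 CPM in Dlx and 145 in granule barcodes of the wild-type library. Cdkn1c, a cell cycle inhibitor that Kcnq1ot1 is known to silence on the paternal copy, had its highest level in choroid plexus cells (467 and 373 CPM). It stood at 245 and 281 CPM in endothelial cells, 123 and 156 in mural cells and 24.9 and 24.1 in microglia. Neuroblasts held 18.3 and 12.2 CPM of it, and astrocytes the least, 3.59 and 0.807. A relation between Kcnq1ot1 and Cdkn1c was not tested. Of the 12 genes listed as imprinted neighbours of Meg3 and Kcnq1ot1, 3 reached the measured minimum in some class, and 1 of them peaked in neuroblasts. Cpsf6 (r 0.99), Zfp157 and Zfp131 (both 0.98) had the most similar class profiles.

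Gas5 was spread over all 6 classes, with a log2 range of 1.85 and 1.79, and was highest in neuroblasts. Neuroblasts held 839 (788 to 892) and 776 (735 to 818) CPM, 2.20 and 2.08 times the microglial 381 and 372. Endothelial cells held 299 and 301, astrocytes 261 and 277, mural cells 225 and 292 and choroid plexus cells 230 and 217. Choroid plexus cells thus held Gas5 close to the astrocyte level while holding the least Malat1. Gas5 begins with a terminal oligopyrimidine tract, as do many genes of the translation machinery. Of the 18 genes of that kind on the list, 14 were highest in neuroblasts in each library (background 32.4% and 31.7%), with a sum of 21673 and 22371 CPM against 5456 and 5673 in astrocytes. Rfc3, Mex3b (both r 0.99) and Ireb2 (0.98) had the most similar profiles.

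Snhg12 was highest in microglia (98.0 and 100 CPM) and neuroblasts (83.4 and 86.0), whose intervals overlapped. Astrocytes held 32.8 and 40.1, endothelial cells 37.6 and 54.6, mural cells 35.0 and 67.0, and choroid plexus cells 21.9 and 15 CPM. Its profile correlated with that of Dleu2 (r 0.93 over 12 points), and Ddx5, an RNA helicase, was among the 3 most similar genes to both, at r 0.96 and 0.98. Asxl1 and Noc2l (both 0.96) completed the 3 for Snhg12. Of 9 measured genes among 16 other snoRNA hosts, 5 were highest in neuroblasts in each library (background 32.4% and 31.7%), and the sum was 942 and 836 CPM there against 428 and 433 in microglia. Snhg18 was highest in mural cells, at 138 and 112 CPM against 0.101 and 0.0385 in microglia.

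Snhg11 was close to absent from the 6 classes, at 0 to 2.32 CPM, with 6 and 7 UMIs in all microglia. It was concentrated in the small fibroblast class, where 25 and 12 barcodes held 249 (190 to 321) and 383 (282 to 508) CPM. Those 60 and 48 UMIs came from 16 of 25 and 9 of 12 barcodes, with at most 8 and 17 in 1 barcode. Slc6a13, a GABA transporter of the meninges, stood at 1026 CPM in wild-type fibroblast barcodes with Snhg11 and at 53.4 in those without, and Ptgds at 20617 against 280. For mutant barcodes these were 2478 against 473 and 27535 against 13682. Dcn, which like Slc6a13 is among the markers that gate this class, was at 4398 against 4097 CPM in wild-type barcodes. In mutant ones it was 4251 against 1033, so the mutant contrast is not particular to Slc6a13 and Ptgds. The 3 and 2 excitatory neuron barcodes held 68.7 and 221 CPM. Zpr1 and Ube2ql1 (both r 0.93) and Eif2a (0.91) had the most similar class profiles over the 6 classes, at levels of Snhg11 too low to read further.

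Dleu2 was highest in microglia. It stood at 357 (350 to 364) and 308 (302 to 315) CPM in microglia and was detected in 81.3% and 82.6% of them. Neuroblasts followed at 138 and 94.1 CPM, then endothelial cells at 71.8 and 65.7, mural cells at 61.3 and 82.4, astrocytes at 29.0 and 22.6 and choroid plexus cells at 4.26 and 4.53. Microglia exceeded neuroblasts by 2.60 and 3.28 times. Border macrophages, another myeloid class with 47 and 18 barcodes, held 284 and 130 CPM. Morc3 and Tsc22d2 matched its profile as closely as Ddx5 (all r 0.98). The microRNAs whose sequences are given above are shorter than the RNAs these libraries capture, and their levels were not measured.

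Lncpint was low throughout. Microglia (22.1 and 25.3 CPM) and astrocytes (22.0 and 20.7) had overlapping intervals, endothelial cells held 11.6 and 6.11, and choroid plexus cells 0.387 and 0.906 from 2 UMIs in each library. No class reached the minimum of 50 CPM used to compare genes. The p53 targets on the list peaked elsewhere. Cdkn1a, the cell cycle inhibitor p21, was at 2008 and 1821 CPM in endothelial cells and at 203 and 230 in microglia. None of the 6 measured p53 targets was highest in microglia or astrocytes. Rab31 (r 0.96), Trib1 and Tmed5 (both 0.95) were closest in profile to Lncpint.

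Of the 9 RNAs, 7 were measured in both libraries, and 5 of these 7 (Malat1, Meg3, Kcnq1ot1, Dleu2 and Gas5, 71.4%) were led by the same class in both at 1.5 times or more over the next class. Among all 7093 measured genes 50.9% met that rule. The RNAs were chosen for their levels by class, so nothing is read from this share. Of 23 other long noncoding RNAs on a list, 10 were measured, and 7 and 6 of these were highest in neuroblasts (background 32.4% and 31.7%). Their sum was 1927 and 1940 CPM in neuroblasts, 1337 and 1382 in astrocytes and 97.3 and 84.3 in choroid plexus cells. Pantr1 accounted for 578 and 673 CPM of the astrocyte value, and Mir99ahg for 600 and 575 CPM of the neuroblast value.

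Between the genotypes, 25 of the 28 differences that could be measured were under 1.5 times. Of 54 pairs of a member and a class, 28 were measured. Of these, 3 were at least 1.5 times apart, 1 higher and 2 lower in the mutant library, and 16 of the 28 differences were below 0. The background share of genes 1.5 times apart in either direction was 0.124% in microglia, 0.276% in astrocytes, 0.0561% in endothelial cells, 5.21% in mural cells, 0.62% in choroid plexus cells and 0.573% in neuroblasts. The 3 pairs were Malat1 in choroid plexus cells (0.31% of genes were lower by that much), Neat1 in astrocytes (0.276% lower) and Snhg12 in mural cells (3.66% higher).

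Malat1 in choroid plexus cells went from 483 CPM (wild type) to 166 (mutant), a log2 ratio of -1.48 (counting interval -1.64 to -1.33). Without the Malat1-rich barcodes the class held 88.4 (79.8 to 97.6) and 32.0 (24.8 to 40.8) CPM, from 390 and 66 UMIs. No class here is known to lack Malat1, so what free RNA adds to such barcodes was not measured, and these low values are not read as expression. The microglia markers, foreign to this class, stood at 96.5 and 124 CPM in the same barcodes. The difference varied with mitochondrial percent. At 0 to 2% mitochondrial UMIs Malat1 was 151 and 20.8 CPM, and at 2 to 3% it was 643 and 180. At 3 to 5% the direction turned, with 488 CPM in 94 wild-type and 757 in 23 mutant barcodes. Within 8000 to 12000 UMIs it was 373 and 52.2 CPM, and within 12000 to 20000 it was 201 and 28.0. The mutant class had the lower median mitochondrial percent, 1.65 against 2.28, and whether this enters the difference between libraries was not tested beyond these bins. In the other 5 classes the log2 ratio of Malat1 ran from -0.26 to -0.03, all under 1.5 times. In neuroblasts its interval included 0 (-0.06 to 0.01), and it ran from -0.11 to 0.09 under other settings. In astrocytes it was -0.38 within 2000 to 5000 UMIs and turned to 0.06 within 8000 to 12000.

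Neat1 in astrocytes was 184 and 116 CPM, a log2 ratio of -0.62 (-0.78 to -0.46). The difference lay between -0.45 and -0.66 in 3 bins of total UMIs and 4 bins of mitochondrial percent. It was under 1.5 times in 3 of these 7 bins (-0.45, -0.50 and -0.56) and in barcodes with Y-linked transcripts and no Xist (-0.40). In microglia, by contrast, Neat1 was 135 and 134 CPM. Whether the 2 classes differ in this was not tested, since each rests on the same pair of libraries. Snhg12 in mural cells was 35.0 and 67.0 CPM from 16 and 48 UMIs, a log2 ratio of 0.77 (0.08 to 1.47). It was under 1.5 times with classes from Leiden clusters (0.58) and as a mean over barcodes (0.44). With no minimum level, 11.3% of genes in mural cells were 1.5 times apart. The next largest differences, under 1.5 times, were Dleu2 in neuroblasts (-0.50) and Snhg12 in endothelial cells (0.44).

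**Figure D3:**
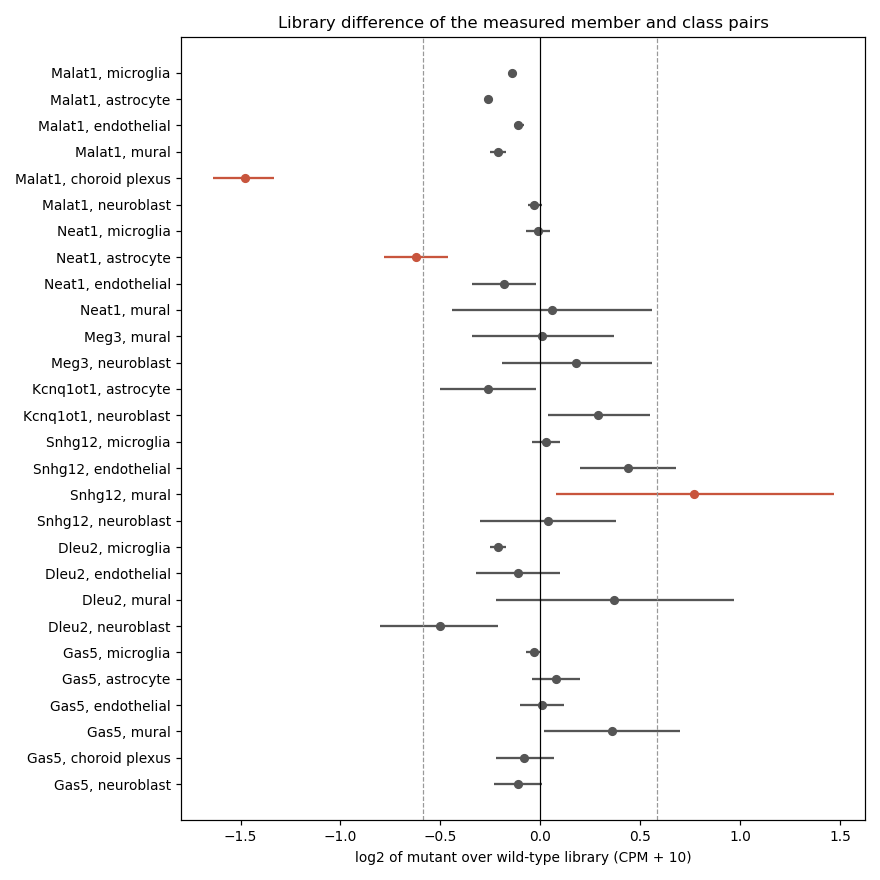
Log2 ratio of the mutant over the wild-type library, on CPM plus 10, for the 28 measured pairs of an RNA and a class, with bars for intervals of counting error. Dashed lines mark 1.5 times in each direction, and red points are the 3 pairs beyond them: Malat1 in choroid plexus cells (-1.48), Neat1 in astrocytes (-0.62) and Snhg12 in mural cells (0.77).

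The gene lists moved little between libraries. In all 6 classes no measured gene among the speckle proteins, other long noncoding RNAs, oligopyrimidine genes, imprinted neighbours or p53 targets was 1.5 times apart. Nudt21 of the paraspeckle list was higher in mutant mural cells (54.7 and 92.2 CPM), and Snhg5 of the host gene list was lower in mutant neuroblasts (55.0 and 31.4). Of the immediate early genes, Klf4 and Ier2 were lower in mutant astrocytes (2 of 12 measured), Dusp1 and Egr1 were lower in mutant choroid plexus cells (2 of 3 measured), and Klf4 was higher in mutant mural cells (1 of 18). The median of the 3 measured immediate early genes in choroid plexus cells was -0.62, against 0.06 over all genes. The minimum admits a gene through the library where it is higher, so this median is not read further. All 18 genes of the list together held 671 and 541 CPM there. Dusp1 was at 53.6 and 19 CPM in these cells and Egr1 at 70 and 42.1, lower in the same class as Malat1.

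The share of these RNAs also varied with the total UMIs of a barcode. Barcodes of each class and library were divided into quartiles of total UMIs, and the highest quartile was set against the lowest. A share of UMIs has the total as its denominator, so the 2 measures are not independent. Of 50 measured sets of a member, class and library, 15 were at least 1.5 times lower and 6 at least 1.5 times higher in the highest quartile, and 31 were below 0. The share of all measured genes that was lower by that much was 2.5% and 1.92% in microglia, 8.72% and 5.17% in astrocytes, 1.48% and 1.11% in endothelial cells, 12.8% and 11.5% in mural cells, 1.31% and 0.784% in choroid plexus cells and 12.7% and 16.0% in neuroblasts. The share that was higher was 1.42% and 0.572% in microglia, 6.41% and 4.41% in astrocytes, 2.65% and 3.82% in endothelial cells, 38.5% and 38.9% in mural cells, 7.77% and 14.2% in choroid plexus cells and 33.9% and 26.1% in neuroblasts.

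In microglia Malat1 went from 9661 CPM in the lowest to 6466 in the highest wild-type quartile, and from 8890 to 5927 for mutant barcodes, just under 1.5 times. Across single microglia its share had a Spearman rho of -0.27 (n = 4444 barcodes) and -0.28 (n = 3250) with total UMIs. In astrocytes it went from 44449 to 24176 and from 29312 to 22087 CPM, and in neuroblasts from 19181 to 7221 and from 18411 to 7088. Endothelial cells showed no such slope, at 9670 and 8294 CPM in wild-type and 7661 and 8285 in mutant barcodes. Summed over choroid plexus cells it went the other way, from 267 to 638 and from 116 to 298 CPM. The 24 and 3 Malat1-rich barcodes were not set apart in these quartiles. They held 84.4% and 82.0% of the class's Malat1 UMIs, at median totals of 23405 and 37283 UMIs. Among the rest, wild-type barcodes with 0, 1 to 3 and 4 to 9 Malat1 UMIs had median totals of 10485.5, 9593 and 8885.5 UMIs. Mutant ones had 11830, 10153 and 9277.

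The other members were uneven. Snhg12 in microglia was 129 CPM in the lowest and 70.4 in the highest quartile, and 156 and 69.9 in the mutant library. Over single barcodes its rank correlation with total UMIs was 0.0 and -0.07, with 57.7% and 51.9% of microglia at 0 UMIs of Snhg12. Dleu2 in microglia was 398 and 311 CPM, and 394 and 257 in mutant barcodes, the second past 1.5 times. Meg3 in neuroblasts was 442 CPM in the lowest quartile and 0 in the highest for wild-type barcodes, and 262 and 9.63 for mutant ones. The Dlx barcodes that hold it were shallower than granule barcodes, with medians of 5960 against 8683 and 9152 against 10520 UMIs. Gas5 was lower by 1.5 times in none of its 12 sets, and was higher in the deepest mural quartile (174 and 270 CPM, and 204 and 372). Neat1 likewise was higher in the deepest mural quartile (47.4 and 199, and 83.8 and 149). The smooth muscle barcodes, which held more Neat1, had the higher median total.

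**Figure D4:**
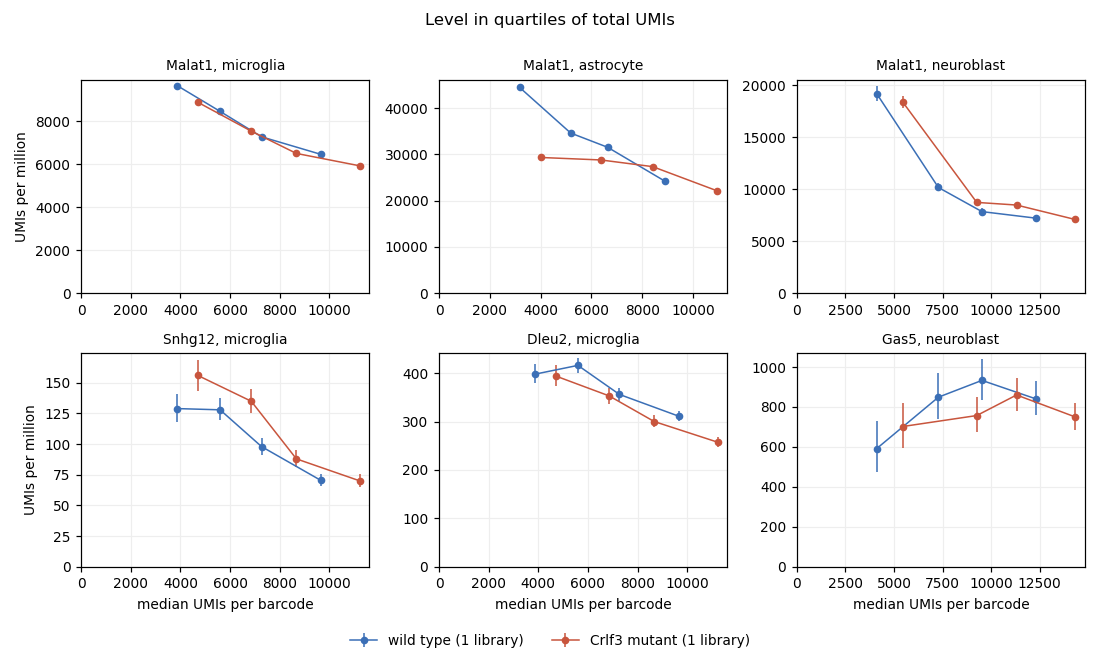
Level by quartile of total UMIs for 6 pairs of an RNA and a class, as UMIs per 1000000 against the median UMIs per barcode of the quartile. Bars are exact Poisson 95% intervals, and each library is 1 line. Malat1 declines from 9661 to 6466 in wild-type microglia and from 19181 to 7221 in neuroblasts, while Gas5 in neuroblasts has no such decline.

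Barcodes with a high mitochondrial percent, which the filter otherwise removes, were rich in Malat1. Here the level is in UMIs per 1000000 non-mitochondrial UMIs, so that it does not fall merely because mitochondrial UMIs rise. Astrocyte barcodes with under 10% mitochondrial UMIs held 31711 and 26683 CPM of Malat1, and those with 10% or more held 87314 and 54973 (140 and 51 barcodes). Microglia went from 7692 to 23461 and from 6941 to 44087 CPM, with 13 and 31 barcodes at 10% or more. These are 2.06 to 6.35 times higher. The median measured gene was lower by 0.64 to 0.80 on the log2 scale. The minimum of UMIs applies to the group where a gene is higher, and the group of high mitochondrial percent holds far fewer UMIs. A lower gene therefore passes the minimum more readily than a higher one. This median and the shares that follow lean towards lower genes for that reason, and Malat1 is not set against them. Genes at least 1.5 times higher made up 0.646% and 1.56% of those measured in microglia and 7.11% and 1.13% in astrocytes, and genes lower by that much 55.1% and 63.5%, and 53.8% and 61.4%.

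The barcodes of high mitochondrial percent were also shallow, with medians of 858 to 1125 UMIs against 5851 to 7641.5. Among barcodes under 2000 UMIs alone, a restriction added after the data were seen, Malat1 still went from 43755 to 112276 and from 16010 to 72423 CPM in astrocytes. In microglia it went from 9116 to 66865 and from 9535 to 52255 CPM. Among such shallow barcodes 25.7% and 6.17% of measured genes were 1.5 times higher in astrocytes, and 0.34% and 5.11% in microglia. In microglia few of these barcodes were of high mitochondrial percent, so the minimum again limits which genes can be higher. Below the limit the relation in microglia was not monotonic: wild-type barcodes with 0 to 1% mitochondrial UMIs held 9214 CPM, those with 2 to 3% held 7022 and those with 5 to 10% held 13543.

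Among the other RNAs, those past the minimum and 1.5 times higher at high mitochondrial percent were Neat1 and Kcnq1ot1 in wild-type astrocytes and Neat1 and Dleu2 in mutant microglia. In astrocytes of the wild-type library Neat1 went from 189 to 606 CPM and Kcnq1ot1 from 57.1 to 310, log2 ratios of 1.63 and 2.25. Among those under 2000 UMIs the ratios were smaller, 1.11 (counting interval 0.47 to 1.78) and 0.80 (-0.08 to 1.71, including 0). In mutant astrocytes Neat1 and Kcnq1ot1 were below the minimum, at 120 and 277, and 46.2 and 237 CPM. These rest on 14 and 12 UMIs at high mitochondrial percent. In mutant microglia Neat1 went from 136 to 1266 and Dleu2 from 313 to 1266 CPM. Among those under 2000 UMIs Neat1 went from 179 to 1554 and Dleu2 from 326 to 1412. In wild-type microglia Neat1 and Dleu2 gave 11 and 16 UMIs at high mitochondrial percent, and Kcnq1ot1 gave 3 and 7 UMIs in the 2 libraries, all below the minimum. Gas5 in astrocytes was 272 and 179 CPM (-0.58, under 1.5 times), and 286 and 139 in mutant barcodes (-0.99, past 1.5 times). The median gene, which the minimum draws downward, was at -0.64 and -0.80. Among barcodes under 2000 UMIs Gas5 was at -0.26 and 0.75, from 14 and 3 UMIs at high mitochondrial percent. Snhg12 in wild-type microglia had 0 UMIs in the 13 barcodes of high mitochondrial percent, against 99.2 CPM below the limit. Gas5 had 4 UMIs in them (388 and 158 CPM). The counting intervals of these log2 ratios, -3.45 to 0.51 for Snhg12 and -2.91 to 0.06 for Gas5, included 0. In mutant microglia both were above their level below the limit, Snhg12 at 102 and 115 CPM from 3 UMIs and Gas5 at 378 and 537 from 14. The 19 speckle protein genes together went from 4665 to 9111 CPM in wild-type and from 4409 to 7638 in mutant astrocytes. In microglia their sum went from 4925 to 7346 and from 5036 to 9209. Past the minimum, 9 of 15 were 1.5 times higher and 1 lower in wild-type astrocytes and 3 of 10 higher and 1 lower in mutant ones, with 1 of 5 higher and 2 lower, and 1 of 3 higher and 2 lower, in microglia. In wild-type astrocytes Pnisr went from 374 to 1232 CPM and Luc7l3 from 173 to 530. Of the oligopyrimidine genes 13 of 16 in wild-type and 10 of 16 in mutant astrocytes were lower, where 53.8% and 61.4% of all measured genes were lower. The list medians were -0.80 and -0.72 beside -0.64 and -0.80 over all genes. The minimum favours lower genes in these counts and medians too, so they are not read further. All oligopyrimidine genes of the list together went from 5741 to 3296 CPM in wild-type and from 5890 to 3938 in mutant astrocytes.

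**Figure D5:**
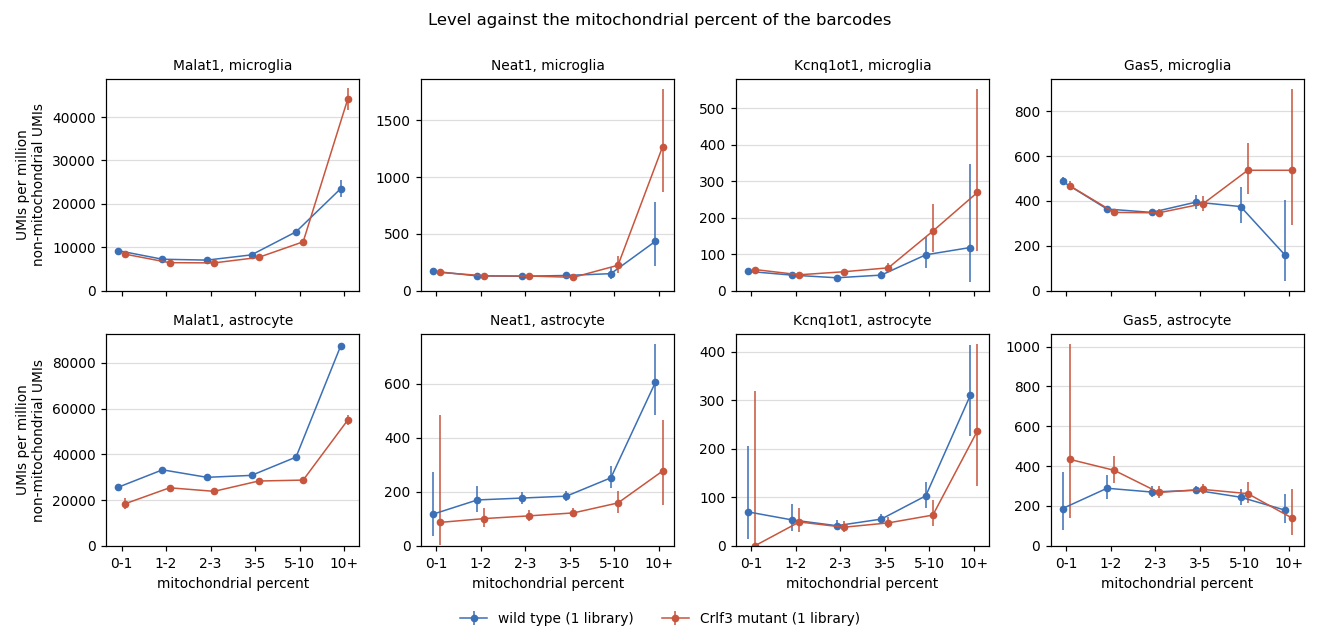
Malat1, Neat1, Kcnq1ot1 and Gas5 by bins of mitochondrial percent in microglia (top) and astrocytes (bottom), as UMIs per 1000000 non-mitochondrial UMIs, with exact Poisson 95% intervals and 1 line per library. Malat1 in astrocytes is at 87314 and 54973 in the bin of 10% or more, above all lower bins, while Gas5 there is at 179 and 139.

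In choroid plexus cells summed Malat1 rose with mitochondrial percent below the limit, unevenly in the mutant library. The 24 and 3 Malat1-rich barcodes, with 84.4% and 82.0% of the class's Malat1 UMIs, were not set apart in these bins. Over single barcodes the Spearman rho was 0.23 (n = 415) and 0.18 (n = 143). In microglia it was -0.19 (n = 4444) and -0.18 (n = 3250). In the wild-type library Malat1 was 61.6 CPM of non-mitochondrial UMIs at 0 to 1%, 228 at 1 to 2%, 659 at 2 to 3%, 674 at 3 to 5% and 1611 at 5 to 10%. Kcnq1ot1 went from 0 to 72.5 CPM over the same bins. Gas5 ran the other way, at 317, 251, 221, 196 and 154 CPM. In the mutant library Malat1 was 9.97, 29.6, 184 and 786 CPM in the first 4 bins and 194 in the last, which held 7 barcodes.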

How the data were processed

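Reads were aligned and counted by the authors with Cell Ranger 6.1.1 on the mouse mm10 genome, per the labels' protocols, and UMI counts per gene and barcode were deposited. Partek is also listed in the submitters' processing notes, with no role given. No cell annotation and no map from barcodes to mice were used here.

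Barcodes needed 500 genes, 1000 UMIs and at most 10% mitochondrial UMIs. Doublets were called with Scrublet in scanpy 1.11.5 (expected rate 0.06) and removed, 2.04% and 1.44%. The median barcode kept held 6193 and 7385 UMIs. Classes were gated on 17 marker sets: the scaled mean log marker level had to reach 0.15 with 3 detected markers and exceed the next class 1.5 times. That scoring rule was set after the files were read. It left 2.73% and 2.26% of barcodes without a class. Differences are log2 ratios of CPM plus 10, and their intervals come from the exact binomial split of UMIs.

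The members, marker sets and gene lists (nuclear speckle, paraspeckle, other snoRNA hosts, other long noncoding RNAs, oligopyrimidine, imprinted neighbours, p53 targets, immediate early) were chosen with earlier results of these data known. Genes named are the members, the 3 closest profiles to each, and up to 4 genes per list by size. Gad1, Gad2, Rian, Mirg, Slc6a13, Ptgds, Dcn and Ttr were added after their values were seen. The procedure was tested on simulated data.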

Additional observations from a re-analysis of the deposited data

How the results depend on the processing

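No paired analysis was possible because each genotype is 1 library. The class highest in Malat1, Meg3, Kcnq1ot1, Dleu2 and Gas5 was compared under 13 other settings. It was the same in all 130 values of an RNA and a library. In 129 it stood 1.5 times above whichever class was next, a comparison added after the data were seen. The other value was 0.55 on the log2 scale, for Malat1. Some of these values were fixed in advance and add no support. Dropping the Malat1-rich choroid plexus barcodes left the leading and next classes untouched, and adding 1 rather than 10 CPM can only widen a lead. The 3 pairs called apart between libraries gave 40 alternative values, 36 past 1.5 times in the reported direction, and the 25 other pairs passed it in 12 of 326. With no minimum level the share of genes 1.5 times apart became 11.3% in mural cells, 1.68% in neuroblasts and 0.157% in endothelial cells. The count of pairs was 5 with no minimum level, 6 in barcodes with Xist and no Y-linked transcript, and 6 in those with Y-linked transcripts and no Xist. Malat1 in choroid plexus cells (-1.48) was -1.05 under the stricter barcode filter, -1.10 with Leiden clusters, -1.66 with a wider gate margin, -1.92 as a mean over barcodes, -1.78 after thinning and -1.23 without the Malat1-rich barcodes, an alternative added after the data were seen. It reversed to 2.99 in barcodes with Xist and no Y-linked transcript, which number 3 and 1. Neat1 in astrocytes was -0.40 in barcodes with Y-linked transcripts and no Xist. Snhg12 in mural cells was 0.58 with Leiden clusters and 0.44 as a mean over barcodes, both under 1.5 times. Sets higher in the deepest quartile, 6 in the main analysis, were 3 after thinning and 19 with no minimum, and sets lower ranged from 10 to 21. The cause of these shifts was not tested. Low counts limit Snhg11, Lncpint and many values in mural cells and neuroblasts, though not Malat1 in either class or Gas5 in neuroblasts. Both classes also hold few barcodes, 128 and 169 in mural cells and 143 and 170 in neuroblasts.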
